A study of Mus musculus with 38 samples.

Results

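Arc, Npas4, Egr1 and Nr4a1 are immediate early genes, which neurons transcribe within minutes of activity without making new protein first. All peaks and positions of every deposited list that lay within 100 kb of these 4 genes in mouse genome build mm9 were taken, 347 of 317341 regions in all. They comprised 257 of 233260 peaks of the AP-1 proteins, 36 of 30239 peaks of acetylated histone H3 lysine 27 (H3K27ac) in unstimulated neurons, 40 of 29418 after KCl, 8 of 12594 combined c-Fos positions and 6 of 11830 enhancer positions. The Npas4 locus held 126 of these regions, Nr4a1 104, Egr1 68 and Arc 49. The genes lie at about chr15:74499500-74503000 (Arc, minus strand), chr19:4984300-4990100 (Npas4, minus strand), chr18:35020800-35024700 (Egr1, plus strand) and chr15:101085000-101105300 (Nr4a1, plus strand). Distances are given from these approximate gene edges, since exons, introns and UTRs were not analysed here.

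The cells were C57BL/6 mouse cortical neurons from embryonic day 16.5, grown for 7 days in vitro. All groups had been silenced overnight with TTX at 1 µM and DL-AP5 at 100 µM, which block sodium channels and NMDA receptors. Unstimulated neurons stayed silenced, and KCl neurons were depolarised for 2 h. H3K27ac came from biological samples 1 and 2, merged by the authors into 1 list per condition. c-Fos (antibodies sc52 and sc7202), FosB (sc48) and JunB (sc46) were mapped without shRNA in biological samples 3 and 4, JunB in biological sample 4 alone. Biological samples 5 and 6 received KCl with a control shRNA, c-Fos shRNA or FosB shRNA, c-Fos being mapped there with sc52. Of 38 samples, 22 were AP-1 libraries with 1 peak list each and 4 were H3K27ac libraries, and the 12 samples of input DNA were not analysed here. Expression was not analysed here, so neither the cell type label nor the knockdowns were checked against RNA.

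c-Fos and FosB pair with Jun proteins such as JunB to form AP-1, which binds DNA at promoters and enhancers, and these proteins are themselves products of activity-induced genes. H3K27ac marks active promoters and enhancers. Arc encodes a synaptic protein that acts in the trafficking of AMPA receptors, Npas4 a neuronal transcription factor with a bHLH-PAS domain that acts on inhibitory synapses, Egr1 a zinc finger transcription factor and Nr4a1 an orphan nuclear receptor. The transcription factors CREB and SRF, present before stimulation, are known to start the transcription of immediate early genes at CRE and CArG motifs.

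RefSeq promoter sequences were matched for 2 of the 4 genes, Npas4 and Nr4a1, and are shown because H3K27ac and AP-1 peaks on these genes are described here. Each run holds the 250 bases before the annotated start in build GRCm38.p6, chr19:4989972-4990221 on the minus strand for Npas4 and chr15:101266596-101266845 on the plus strand for Nr4a1. Capitals mark the short CRE motif CGTCA on either strand.
Npas4: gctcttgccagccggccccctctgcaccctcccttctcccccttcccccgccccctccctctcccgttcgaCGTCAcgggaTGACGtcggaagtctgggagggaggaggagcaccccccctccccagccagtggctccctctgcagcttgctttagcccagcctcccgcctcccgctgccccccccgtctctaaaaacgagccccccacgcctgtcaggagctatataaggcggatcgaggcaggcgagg
Nr4a1: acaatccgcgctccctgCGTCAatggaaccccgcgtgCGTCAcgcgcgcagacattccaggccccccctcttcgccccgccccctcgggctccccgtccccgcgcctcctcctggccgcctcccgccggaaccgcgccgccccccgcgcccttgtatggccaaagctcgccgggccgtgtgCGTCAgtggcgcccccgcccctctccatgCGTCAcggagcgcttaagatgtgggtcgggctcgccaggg
The Npas4 sequence held CGTCA at 2 places and the Nr4a1 sequence at 4. Among 32851 mouse promoters of the same length, 17.8% held it at least once, 3.90% at 2 or more places and 0.137% at 4 or more. The full CRE TGACGTCA, which contains the short motif on both strands, was in neither sequence and in 1.55% of all promoters. The AP-1 motif TGANTCA was in neither and in 6.75% of all. Neither held the CArG box (1.47% of all) or the E-box CANNTG (66.2% of all). All motifs were searched on both strands, and a missing match says only that these letters are not in this window.

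In H3K27ac, 3 loci had a longer total length covered by peaks after KCl and Egr1 a slightly shorter one. Covered length was 22111 bp in the unstimulated list and 40248 bp in the KCl list at Nr4a1, a ratio of 1.82. It was 31330 and 40381 bp at Npas4 (ratio 1.29), 6653 and 7485 bp at Arc (ratio 1.13), and 35678 and 34434 bp at Egr1 (ratio 0.965). Peaks that crossed the edge of a window were counted at full width. At Egr1 such a peak, 3098 bp wide in the unstimulated list and 3605 bp in the KCl list, lay mostly outside the window. The lists of the whole genome covered 1.01 times as much after KCl. These lists have no replicates, so no difference in H3K27ac was tested.

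**Figure D1:**
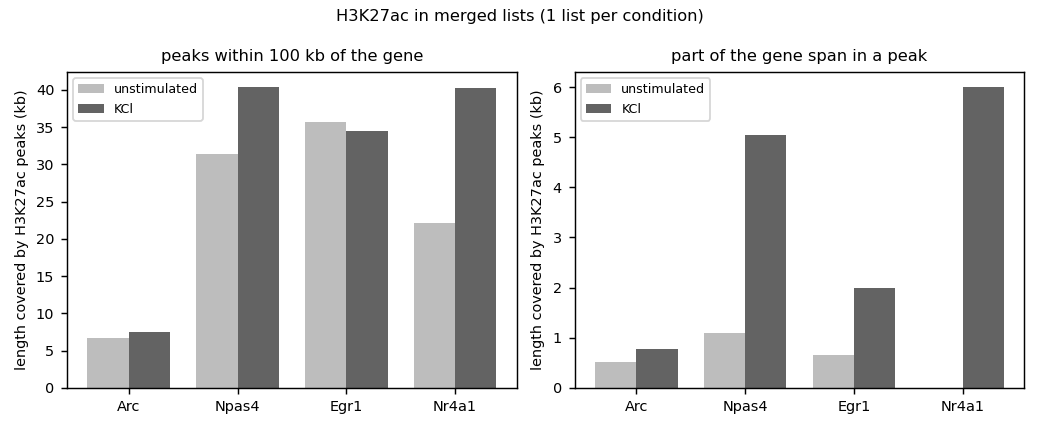
Length in kb covered by H3K27ac peaks that reached within 100 kb of each gene, counted at full width (left), and on the gene span itself (right). Light bars are the merged unstimulated list and dark bars the KCl list, 1 list per condition with no error bars. On the gene span the KCl bar is the higher one for all 4 genes, and Nr4a1 has no unstimulated bar.

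On the genes themselves, H3K27ac covered more of the span in the KCl list at all 4. It covered 0 bp of the Nr4a1 span without stimulation and 6001 bp after KCl, 1102 and 5037 bp of Npas4, 651 and 1996 bp of Egr1, and 509 and 766 bp of Arc. Of the 40 KCl peaks, 7 had no unstimulated peak that shared at least 1 bp, against 18.1% of all KCl peaks. Of these 7, 5 were at Nr4a1, 1 at Npas4, 1 at Arc and 0 at Egr1. In the other direction, 3 of 36 unstimulated peaks had no KCl partner, against 20.2% of all unstimulated peaks. The share of peaks listed in 1 condition only was thus near the background after KCl and lower without stimulation, with no test made.

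At Nr4a1, 2 of the new KCl peaks lay on the gene, chr15:101082818-101086113 over its 5′ edge (score 1147.36) and chr15:101095124-101100010 inside the span (score 1650.68). The score is the authors' value for a peak, is 50 or more in these lists, and is compared here within a list only. These scores were above those of 80.4% and 86.6% of the KCl list. The other 3 lay before the 5′ edge, at 61.4 kb (chr15:101021104-101023596, score 166.60), 17.6 kb (chr15:101064709-101067435, score 173.61) and 12.5 kb (chr15:101070796-101072475, score 97.09). Nr4a1 was the locus with the most KCl peaks in the authors' distal list, 10 of 14. That list held the peak over the approximate 5′ edge and not the one inside the span. Where the annotated start of Nr4a1 lies in mm9 was not determined, so neither peak is assigned to its promoter here.

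At Npas4, H3K27ac on and before the gene was shaped differently in the 2 lists. The unstimulated list had a weak peak over the 5′ end, chr19:4988999-4990792 (score 54.77, above 2.61% of its list), and a strong one 2.06 kb before it, chr19:4992163-4995769 (score 1776.35). The KCl list had 1 peak over both, chr19:4986239-4996878. It was 10640 bp long, longer than 99.5% of KCl peaks, with a score of 3100, and 0.982% of KCl peaks overlapped 2 or more unstimulated peaks. A score of 3100 or more was held by 1611 KCl peaks. Farther out, the unstimulated peak chr19:5000878-5002851 (1974 bp) lay inside the KCl peak chr19:4997664-5003283 (5620 bp). The KCl peak with no unstimulated partner, chr19:4984868-4986042 (score 54.29), lay on the gene near its 3′ edge. The unstimulated peak chr19:5060559-5062003 (score 62.24), 70.5 kb before the gene, had no KCl partner.

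At Egr1, the peak over the 5′ edge was chr18:35018247-35021450 (3204 bp, score 884.06) without stimulation and chr18:35018211-35022795 (4585 bp, score 2542.16) after KCl. It outscored 80.1% of the unstimulated list and 92.4% of the KCl list. All 10 KCl peaks at this locus had an unstimulated partner. The unstimulated peak chr18:35013970-35015846 (score 57.07), 4.95 kb before the gene, had none after KCl. At Arc, the peak over the 5′ edge was chr15:74502492-74504077 (1586 bp, score 73.69) without stimulation and chr15:74502235-74504433 (2199 bp, score 137.25) after KCl. The KCl list added chr15:74509090-74510810 (score 86.32), 6.09 kb before the gene. It lacked a partner for the unstimulated peak chr15:74419103-74420478 (score 50.50), 79.0 kb beyond the 3′ edge.

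**Figure D2:**
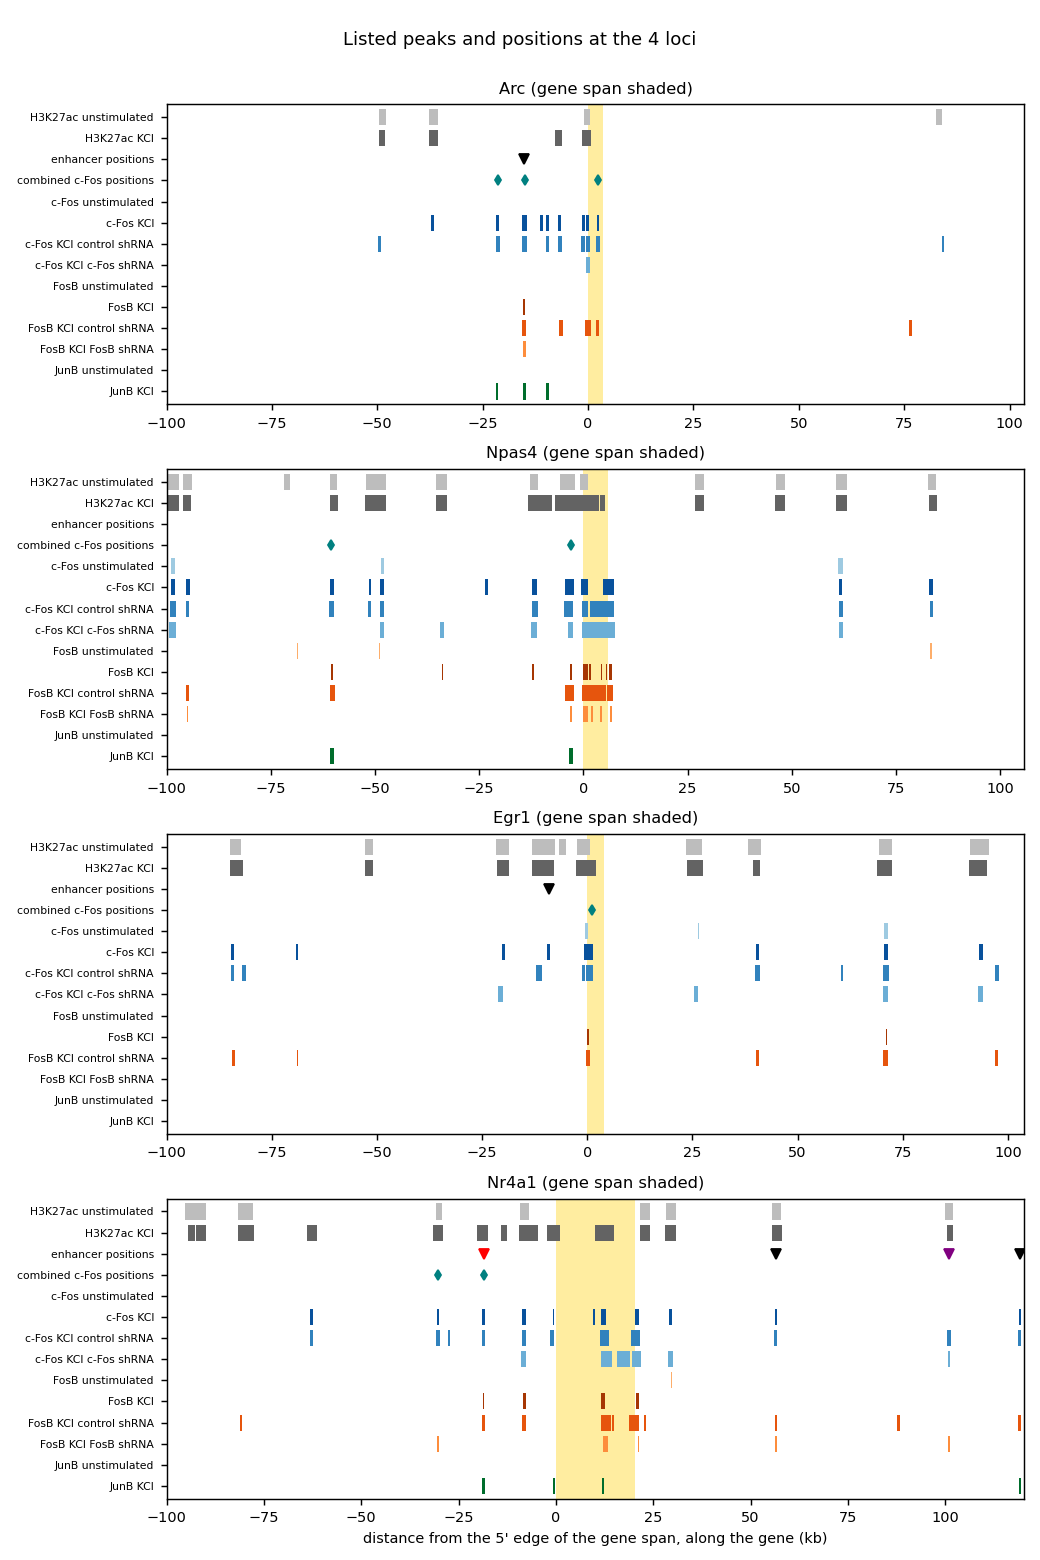
Listed regions at the 4 loci, by distance in kb from the 5′ edge of the gene span (shaded) along the gene, with all libraries of a group drawn on 1 row and very narrow regions drawn at a minimum width. Triangles are enhancer positions (red: increasing class, purple: decreasing, black: unclassified), diamonds are combined c-Fos positions, and the c-Fos rows are empty without stimulation at Arc and Nr4a1.

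KCl lists held more c-Fos peaks at these loci than unstimulated lists. Over the 4 loci, the unstimulated sc52 lists had 4 peaks in biological sample 3 and 3 in 4, and the unstimulated sc7202 lists 3 and 2. The KCl lists had 24 and 6 with sc52 and 32 and 14 with sc7202. The mean was 3 ± 0.816 without stimulation and 19 ± 11.4 after KCl (SD, n = 4 libraries each from 2 biological samples), and the groups did not overlap. The difference in mean log2(number + 1) was 2.12. The whole lists were longer too. In the 4 pairs matched by antibody and biological sample, the KCl number at the loci was 6, 2, 10.7 and 7 times the unstimulated one, and the list length 6.10, 3.60, 16.3 and 29.2 times. Per 10000 listed peaks, the 4 loci held 19.9 ± 11 without stimulation and 9.81 ± 1.28 after KCl (SD, n = 4 each), so the difference turned its direction, to -0.83 on the log2 scale. When both lists of a pair were cut to an equal number of top-scoring peaks, the difference was 0.18. The part that list length has in the difference was not tested, and sequencing depth is unknown because the lists hold no reads.

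**Figure D3:**
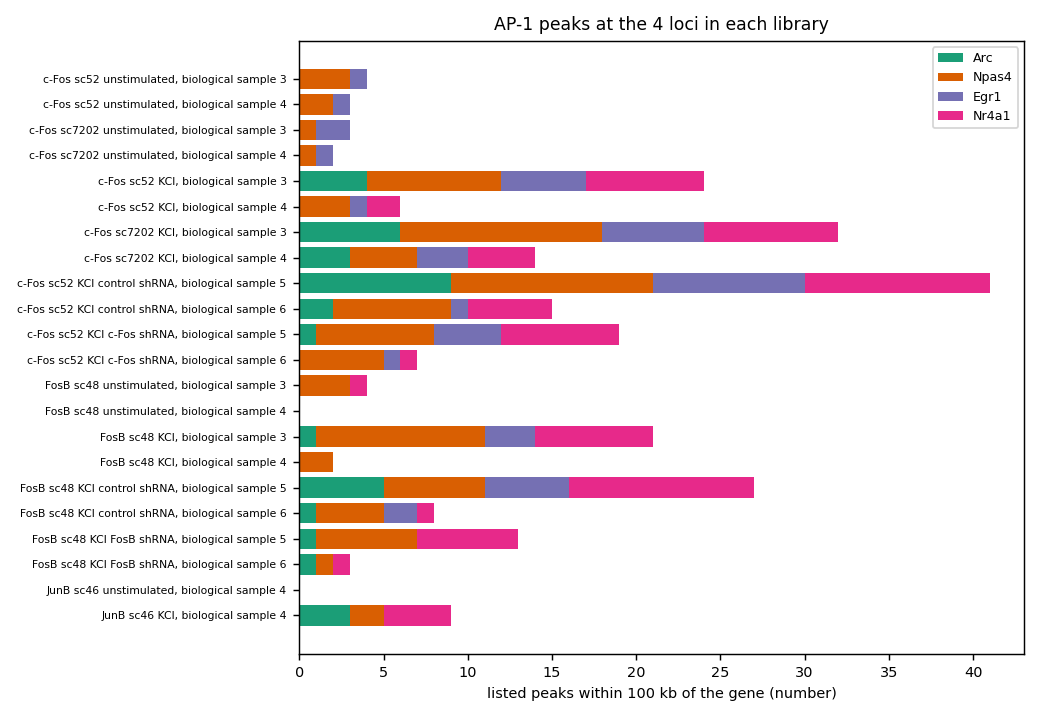
Number of AP-1 peaks within 100 kb of each gene in each of the 22 libraries, stacked by gene, with no scaling for list length. The control shRNA c-Fos library of biological sample 5 is the highest at 41, and the unstimulated JunB list and an unstimulated FosB list have 0.

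The loci differed in the c-Fos peaks listed without stimulation. Arc and Nr4a1 had 0 c-Fos peaks in all 4 unstimulated lists. Across the series, 8.44% of AP-1 sites, chained as described below, had a peak in any of these lists. Of the 6 such sites at Npas4 and Egr1, 5 had unstimulated peaks from 1 antibody only. After KCl, Nr4a1 had 7 and 2 with sc52 and 8 and 4 with sc7202, so every KCl list had some. Arc had 4 and 0 with sc52 and 6 and 3 with sc7202, so the sc52 list of biological sample 4 had none there. Npas4 had 3 and 2 with sc52 and 1 and 1 with sc7202 without stimulation, and 8, 3, 12 and 4 after KCl. The Npas4 ranges met at 3. Egr1 had 1, 1, 2 and 1 without stimulation, and 5, 1, 6 and 3 after KCl, so its ranges overlapped. Per 10000 listed peaks, the log2 difference between KCl and unstimulated lists was 1.93 at Nr4a1 and 1.15 at Arc, and turned negative at Npas4 (-1.23) and Egr1 (-1.57). At Nr4a1 and Arc these values rest on the added 1, since all unstimulated counts were 0. With lists cut to an equal number of top-scoring peaks, the difference was 0.50 at Nr4a1, against 2.52 on the full lists, and 0 at Arc, against 1.78. Biological sample 3 had the higher count for each antibody at each locus after KCl, and its lists were also the longer ones.

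FosB and JunB peaks were also listed at the loci. FosB had 4 peaks and 0 peaks without stimulation in biological samples 3 and 4, and 21 and 2 after KCl, so the groups overlapped. JunB had 0 peaks in its unstimulated list and 9 in its KCl list, 4 at Nr4a1, 3 at Arc, 2 at Npas4 and 0 at Egr1, with 1 library per condition. List length was 4229 and 2041 for FosB without stimulation and 10898 and 4899 after KCl. For JunB it was 3126 without stimulation and 19346 after KCl.

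Overlapping AP-1 peaks of all libraries were chained into 55 sites at the 4 loci. A site listed by at least 3 of the 6 KCl c-Fos lists (control shRNA included) is called recurrent here. There were 19 recurrent sites, against 30.6% of all 61842 sites of the series: 7 at Npas4, 5 at Nr4a1, 4 at Arc and 3 at Egr1. Peaks in all 6 KCl c-Fos lists were found at 4 sites, 2 at Npas4 and 2 at Nr4a1, against 5.97% of all sites. A chained site can join peaks that do not overlap each other, as over the Npas4 gene. At the other extreme, 17 sites were in 1 library only, against 39.3% of all. Of the 55 sites, 39 overlapped a KCl H3K27ac peak, against 33% of all: 13 of 15 at Npas4, 12 of 16 at Nr4a1, 10 of 13 at Egr1 and 4 of 11 at Arc. Of the 19 recurrent sites, 16 overlapped a KCl H3K27ac peak, against 39.9% of recurrent sites in the series. The 3 that did not were all at Arc. An unstimulated H3K27ac peak overlapped 14 of the 19, with no share over the series computed. At least 1 KCl FosB list held 15 of the 19, against 82.1% of recurrent sites in the series, and the KCl JunB list held 6, against 60.5%.

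**Figure D4:**
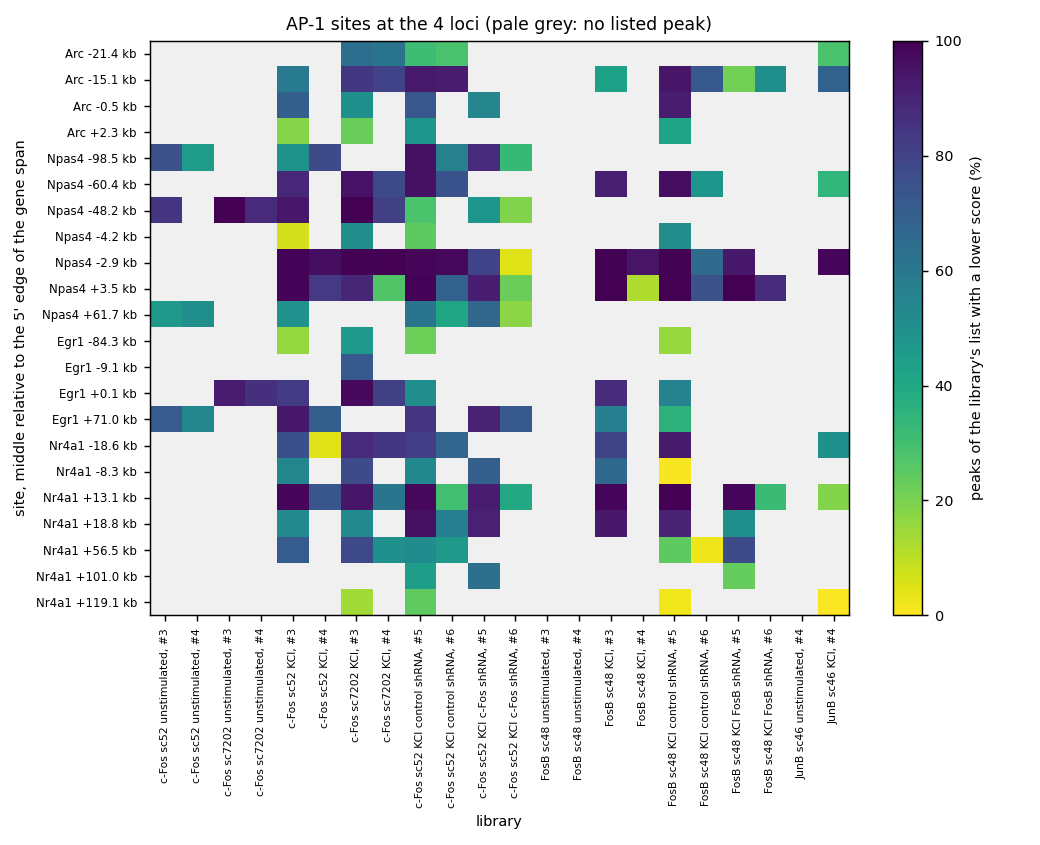
AP-1 peaks at the 22 sites that were recurrent or within 1 kb of a listed enhancer, by site (rows, named by gene and distance of the middle from the 5′ edge) and library (columns, # giving the biological sample). Colour is the share of that library's list with a lower score in percent, and the site 2.9 kb before Npas4 is dark in all 6 KCl c-Fos columns.

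A recurrent site with high scores in every KCl c-Fos list lay 2.18 kb before Npas4, chr19:4992280-4993693, inside the H3K27ac peaks of both conditions. It was listed in 6 of 6 KCl libraries for c-Fos, 4 of 4 for FosB and the 1 for JunB, and 0 of 4 unstimulated c-Fos lists did. Its c-Fos scores were 917.77 and 335.29 with sc52, 1252.69 and 681.24 with sc7202 and 750.72 and 517.26 with control shRNA, each above at least 96.1% of its list. The JunB score of 475.10 was above 98.4% of its list. With c-Fos shRNA the site was still listed, with scores of 203.60 in biological sample 5 (above 79.7% of the list) and 52.71 in 6 (above 5.02%). With FosB shRNA it was listed in biological sample 5 (score 253.85) and not in 6. The authors' combined c-Fos list has a position there, chr19:4993094. Next to it, chr19:4993705-4994801 was in 3 of 6 KCl c-Fos lists (scores from 52.88 to 89.82) and 1 of 4 KCl FosB lists, in no shRNA list against c-Fos or FosB, and also inside H3K27ac of both conditions. No enhancer position was listed at the Npas4 locus.

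Over the Npas4 gene, peaks of several libraries chained into chr19:4982584-4990576. This chained site was 7993 bp long and had a peak of all 6 KCl c-Fos lists, but not all on the gene. The only peak there in the sc52 KCl list of biological sample 4, chr19:4982968-4984160, lay beyond the 3′ edge. A peak lay over the 5′ edge of the gene in 4 of 6 KCl c-Fos lists, 2 of 2 c-Fos shRNA lists, 2 of 4 KCl FosB lists and 1 of 2 FosB shRNA lists. Some of these peaks were broad. c-Fos peaks covered 90.8% of the span and FosB peaks 95.4% with control shRNA in biological sample 5, and a c-Fos peak of 7945 bp covered 100% of it with c-Fos shRNA in biological sample 5. In the other 19 libraries coverage ran from 0% to 30.5%. The Nr4a1 span was also most covered in biological sample 5, at 34.7% with c-Fos shRNA, 23.9% in the control shRNA FosB library and 16.7% in the control shRNA c-Fos library, against 0% to 8.37% in the rest. The median peak width over the whole list was 985 bp in the c-Fos shRNA list of biological sample 5 and 841 bp in its control shRNA c-Fos list, against 157 to 890 bp in the other c-Fos lists. It was 767 bp in its control shRNA FosB list, against 176 to 254 bp in the other FosB lists, the FosB shRNA list of biological sample 5 (221 bp) among them. The part of peak width in this coverage was not tested.

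**Figure D5:**
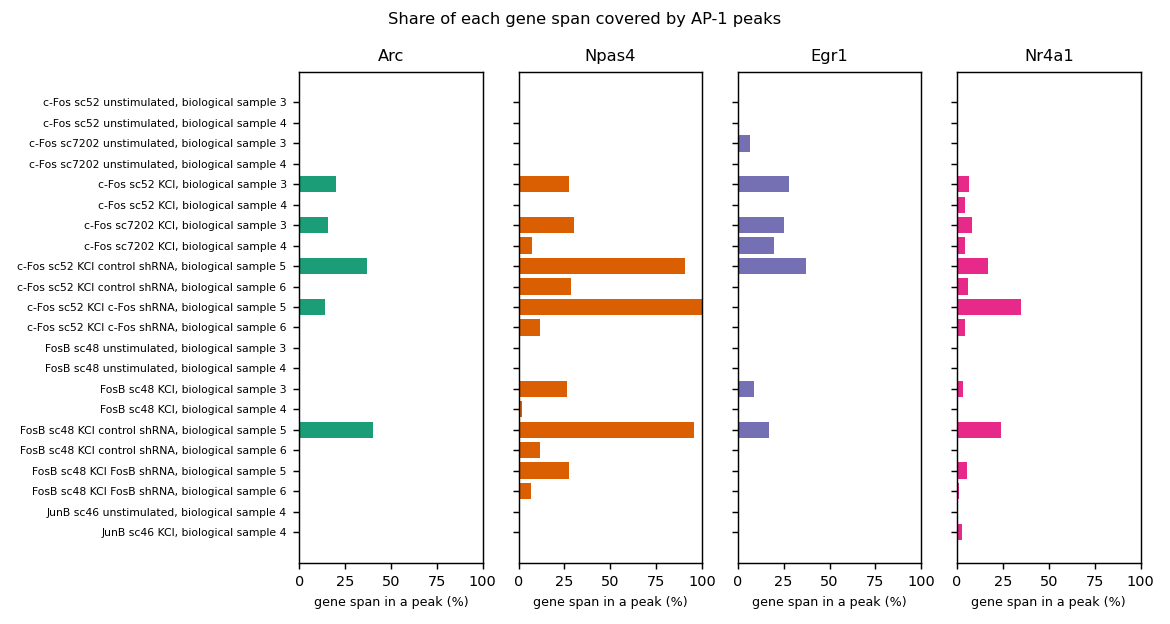
Share of each gene span in percent that AP-1 peaks of each library covered, with 1 bar per library. The 3 long bars at Npas4, from 90.8% to 100%, all belong to biological sample 5.

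At Npas4, another recurrent site lay 59.6 kb before the gene, chr19:5049746-5051183. It was in 5 of 6 KCl c-Fos lists, 3 of 4 KCl FosB lists and the JunB list, and in no shRNA list against c-Fos or FosB. It overlapped H3K27ac peaks of both conditions, and the combined list has a position there, chr19:5050572.

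The Nr4a1 gene held a site with a peak in all 6 KCl c-Fos lists, chr15:101096371-101099896, inside the new H3K27ac peak of the span. Its highest c-Fos scores were 718.15 and 107.32 with sc52, 340.95 and 95.11 with sc7202, and 638.96 and 67.18 with control shRNA. These lay above 98.8% and 73.1%, 93.8% and 61.1%, and 98.02% and 30.3% of their own lists. JunB was listed (score 58.56), as were 2 of 4 KCl FosB lists. Both c-Fos shRNA lists (558.76 and 91.69) and both FosB shRNA lists (481.75 and 61.59) had it too. The site 18.1 kb before the gene, chr15:101065923-101066890, was also in all 6 KCl c-Fos lists, with scores from 51.36 to 233.51, and inside a new H3K27ac peak. It was in 2 of 4 KCl FosB lists, in the JunB list and in no shRNA list against c-Fos or FosB. The 2 Nr4a1 sites in all 6 KCl c-Fos lists thus differed in whether they were listed with c-Fos shRNA, a difference that was not tested.

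Across the 3′ edge of Nr4a1, the chained site chr15:101100630-101106937 was in 4 of 6 KCl c-Fos lists, 2 of 4 KCl FosB lists and 1 of 2 c-Fos shRNA lists. A peak lay over the edge itself in 1 list of each of these 3 kinds. The site 7.63 kb before the gene, chr15:101076062-101077366, was in 3, 2 and 1 of the same lists.

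At Arc, the most recurrent site was 14.5 kb before the gene, chr15:74517458-74518709. It was in 5 of 6 KCl c-Fos lists, with scores from 100.42 to 300.58, in 3 of 4 KCl FosB lists, in the JunB list and in both FosB shRNA lists (55.43 and 77.58). No c-Fos shRNA list had it, and no H3K27ac peak of either condition overlapped it. The site 21 kb before the gene, chr15:74524002-74524819, was in 4 KCl c-Fos lists and the JunB list, also outside H3K27ac. The chained site across the 5′ edge, chr15:74502409-74504664, was in 3 KCl c-Fos lists and overlapped H3K27ac of both conditions. A peak lay over the edge itself in 2 of these lists. Inside the gene, chr15:74500285-74501176 was in 3 KCl c-Fos lists outside H3K27ac. The new H3K27ac peak 6.09 kb before Arc held peaks of 2 of 6 KCl c-Fos lists and 1 of 4 KCl FosB lists.

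At Egr1, the site over the 5′ edge, chr18:35019501-35022282, was in 4 of 6 KCl c-Fos lists and 2 of 4 KCl FosB lists, and in neither JunB nor c-Fos shRNA lists. It was also in 2 of 4 unstimulated lists, both made with sc7202, though in 1 of them alone the peak lay over the edge itself. The scores were 1522.96 and 266.41. These lay above 92.1% and 86.0% of their lists. After KCl the sc7202 scores were 560.92 and 145.06, above 97.6% and 81.0%. The site 83.8 kb before the gene, chr18:34936025-34936968, was in 3 KCl c-Fos lists and 1 FosB list.

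Sites with an unstimulated c-Fos peak numbered 6 of 55, against 8.44% of all sites, with 3 at Npas4 and 3 at Egr1. Of the 19 recurrent sites, 5 had such a peak, against 12.6% of recurrent sites in the series, with no test made. In 5 of the 6 sites the unstimulated peaks came from 1 antibody only. The site 55.4 kb beyond Npas4 (chr19:4927809-4928892), the site 97.6 kb before Npas4 (chr19:5087747-5089412) and the site 66.5 kb beyond Egr1 (chr18:35091165-35092423) were in both unstimulated sc52 lists and in 0 of 4 sc7202 lists of either condition. All 3 were also in both c-Fos shRNA lists, which were made with sc52. The exception, 47.7 kb before Npas4 at chr19:5037812-5038860, was in 3 of 4 unstimulated lists, 4 of 6 KCl lists and both c-Fos shRNA lists, and in no FosB or JunB list. Its sc7202 score in biological sample 3 was 3186.04 without stimulation and 1992.36 after KCl, each above 99.9% of its list. The 6th site, chr18:35046187-35047398, was in 1 unstimulated list and 1 c-Fos shRNA list. The part of the antibody in these peaks was not tested.

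Fewer peaks were listed at the loci with either shRNA. With control shRNA the c-Fos lists of biological samples 5 and 6 had 41 and 15 peaks, and with c-Fos shRNA 19 and 7, which is 0.463 and 0.467 times as many. The groups overlapped. The whole lists held 23578 and 19131 peaks with control shRNA and 7808 and 1793 with c-Fos shRNA, or 0.331 and 0.0937 times as many. Per 10000 listed peaks, the loci therefore held 17.4 and 7.84 with control shRNA and 24.3 and 39.04 with c-Fos shRNA. FosB had 27 and 8 peaks with control shRNA and 13 and 3 with FosB shRNA, and its lists held 0.433 and 0.508 times as many peaks.

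Several recurrent sites had a listed peak with c-Fos shRNA. Of the 19, 10 had a peak in a c-Fos shRNA list, against 21.2% of recurrent sites in the series, and 7 in both, against 7.64%. Of those 7, 5 were at Npas4, 1 at Egr1 and 1 at Nr4a1, and 4 of the 7 also had a listed c-Fos peak without stimulation. Of the 4 recurrent Arc sites, 1 had a peak in a c-Fos shRNA list. Among the 7 sites in both lists, the chained sites over the Npas4 and Nr4a1 genes were 7993 and 3526 bp long. The part of site length in these shares was not tested.

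The 6 listed enhancers, distal positions with the coactivator CBP and H3K4me1, comprised 4 at Nr4a1, 1 at Arc and 1 at Egr1. The authors put 1 in the class of increasing H3K27ac (12.4% of all enhancers), 1 in the decreasing class (6.24%) and 4 in no class (58.6%), and none in the classes of constant (6.76%) or no H3K27ac (15.9%). In H3K27ac peaks of both conditions were 3 of the 6, against 35.8% of all. Each of the 6 was in at least 1 of the 6 KCl c-Fos lists, and 43.4% of all enhancers were in none. No unstimulated c-Fos list had a peak over any of them. After KCl, c-Fos peaks held 3 and 1 of the 6 with sc52 and 5 and 3 with sc7202, a mean of 50% ± 27.2 (SD, n = 4). Over all enhancers the mean was 0.856% ± 0.902 without stimulation and 32.8% ± 13.8 after KCl (SD, n = 4 each). With 6 positions, 1 enhancer moves a share by 16.7 percentage points.

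The increasing enhancer was chr15:101066415, 18.6 kb before Nr4a1. It lay in the new H3K27ac peak and in all 6 KCl c-Fos lists, a count that 11% of enhancers reached, and 5 bp from a combined c-Fos position. The enhancer chr15:74518250, 15.3 kb before Arc, was in 5 of 6 KCl c-Fos lists and 196 bp from a combined position, outside H3K27ac in both conditions and in no class. The Nr4a1 enhancer chr15:101141590, 36.3 kb beyond the 3′ edge, was in 5 of 6 and in H3K27ac of both conditions, in no class. The decreasing enhancer, chr15:101185895, 80.6 kb beyond Nr4a1, lay in H3K27ac peaks of both conditions, 2098 bp wide (score 199.33) without stimulation and 1436 bp (score 50.62) after KCl. Of the KCl c-Fos lists, 1 of 6 had it. The enhancer chr15:101204150, 98.9 kb beyond Nr4a1, was in 2 of 6 and outside H3K27ac. The Egr1 enhancer chr18:35011595, 9.21 kb before the gene, was in 1 of 6 and in H3K27ac of both conditions. Within 500 bp of a combined c-Fos position were 2 of the 6, against 26.3% of all enhancers.

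Other genes lie within these windows, so a peak is assigned to a place and not to a gene. In RefSeq gene order, Arc lies between Mroh4 and Jrk, Npas4 between Mrpl11 and Slc29a2, Egr1 between Reep2 and Etf1, and Nr4a1 between Grasp and Atg101. Combined c-Fos positions numbered 3 at Arc, 2 at Npas4, 2 at Nr4a1 and 1 at Egr1, the last at chr18:35021876 inside the gene. Of the 19 recurrent sites, 7 held such a position. The share over all recurrent sites of the series was not computed, so this count is not read as a trait of these loci. The chained sites over the Npas4 and Nr4a1 genes that counted all 6 KCl c-Fos lists held no combined position.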

How the data were processed

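Deposited ChIP-seq peak lists of AP-1 proteins and H3K27ac in mouse cortical neurons were analysed. Reads had been aligned with BWA to mm9, per the submitters' processing notes, and the deposited peak names begin with MACS. No version or control library is named in the labels or file headers. Each deposited peak carries the authors' score, used only within a list. The authors called AP-1 peaks per library and H3K27ac peaks on merged biological samples, per the labels. Other deposited lists give positions without width.

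Gene spans are approximate. A region was counted when it shared at least 1 bp with a gene extended by 100 kb on each side. Numbers of peaks were compared as log2(number + 1). Exact permutation tests of these numbers summed over the 4 loci had been planned. Their p-values are not given, because the members, lists and loci were chosen with earlier results of these data known. The described sites were those in at least 3 of 6 KCl c-Fos lists or within 1 kb of a listed enhancer, along with every enhancer, every H3K27ac peak on a gene and every one listed in 1 condition. Biological sample numbers pair libraries across conditions, per the labels. Nothing says that libraries of 1 biological sample came from separate cultures. Alternatives were a 50 kb window, a score of at least 100, peaks within 500 bp counted once, the same number of best-scoring peaks, counts per 10000 listed peaks, each antibody alone, each biological sample left out, the replicate block, the distal H3K27ac list and distances of 200 bp and 1 kb to an enhancer. Leaving out the shortest unstimulated list was chosen after seeing the data. The counting was tested on simulated data, where 100% of 800 locus counts were recovered. Python 3.11.15, numpy 2.4.6, scipy 1.17.1 and matplotlib 3.10.9 were used. Motifs were searched in RefSeq promoters of GRCm38.p6, whose coordinates were not mixed with mm9.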

Additional observations from a re-analysis of the deposited data

Results flagged for a closer look

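The number of c-Fos peaks at Egr1 in the 4 unstimulated libraries was 2 in the sc7202 list of biological sample 3 and 1 in each of the others. It was the 1 group of 14 checked in which a library stood apart by the Dixon criterion. Chance picks out about 1 in 20 groups of continuous values in this way. With the other values tied, any difference passes the criterion, so it carries no weight here.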

How the results depend on the processing

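The lists hold no reads, so depth limits each count by an unknown amount. The difference in c-Fos peaks over the 4 loci (2.12 on the log2 scale) was 1.56 with sc52 alone, 2.68 with sc7202 alone, 1.99 without the unstimulated sc7202 library of biological sample 4 and 0.18 with lists cut to an equal number of top-scoring peaks. It reversed to -0.83 per 10000 listed peaks, and ran from 1.56 to 2.68 with each biological sample left out. With the replicate block it stayed 2.12, but 4 pairs cannot pass a threshold of 0.05. Per 10000 listed peaks Npas4 gave -1.23 and Egr1 -1.57, and with lists of equal number Egr1 gave -0.65 and Arc 0. The decrease with c-Fos shRNA (-1.04) reversed to 1.08 with lists of equal number and to 1.32 per 10000 listed peaks, and that with FosB shRNA (-1.08) to 0.053 with lists of equal number and was -0.11 per 10000. The FosB difference between KCl and unstimulated lists (1.86) was 2.16 both at 50 kb and at a score of at least 100. It was 1.07 with lists of equal number and 1.65 per 10000. The JunB difference (3.32) was 3 at 50 kb, 1.58 at a score of at least 100, 1 with lists of equal number and 2.50 per 10000. The 50 percentage points of enhancers gained by c-Fos were 37.5 at a score of at least 100, 33.3 with sc52 alone, 66.7 with sc7202 alone, 50 with the replicate block and 33.3 to 66.7 with each biological sample left out. The H3K27ac log2 ratio over the 4 loci (0.36) was 0.57 at 50 kb, 0.45 at a score of at least 100 and 0.26 in the distal list. That of Npas4 turned to -0.048 in the distal list and that of Egr1 to 0.087 at a score of at least 100. The causes were not tested. Over all settings, those named above included, 4 values for the summed results and 5 for single loci reversed. No other value reversed, though several became much smaller and that of Arc fell to 0 with lists of equal number.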
